A study of Rattus norvegicus with 24 samples.

Results

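Neurons of the dorsal root ganglion (DRG) were compared between 1 day after spared nerve crush (SNC) and sham surgery in the rat, over all genes and over all picked cells. The comparison held 453 of the 1433 cells of the series that passed quality control, which asked for at least 500 genes, at least 1000 unique molecular identifiers (UMIs, the tags that let each captured RNA molecule be counted once) and a share of mitochondrial transcripts under 5%. They came from 8 DRG samples, 4 per group. The UMIs of all cells of a sample were summed, so that the DRG sample, not the cell, was the replicate.

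All rats were male Sprague-Dawley rats with no genetic change. In SNC the tibial and common peroneal branches of the left sciatic nerve were crushed with forceps and the sural branch was left intact, and in sham surgery the nerve was exposed and not injured. Tracer dyes had been injected into the branches before SNC or sham surgery, so the sham rats of this comparison too had an exposed and injected nerve, and their day of harvest after surgery is not given in the sources used here. L4 and L5 neurons with dye were picked by mouth pipette, and polyadenylated RNA was copied by a modified Smart-seq2 protocol. By the labels, 127 of the 240 cells of the 1 d samples were directly injured neurons and 113 indirectly injured neurons, against 108 of 216 cells with the dye of the same branches in sham. The sources name the 2 dyes in opposite order for the crushed and the intact branches, so which count belongs to which neurons rests on the labels alone. The cell names carry no dye, so crushed and uncrushed neurons are pooled in every value given here. Several rats were harvested at each time point, but the labels and methods do not tie the samples to rats, and the p-values then measure only the spread between these samples.

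The cell bodies of the sensory nerve lie in the DRG. When an axon is crushed, calcium and retrograde kinase signals reach the cell body and switch on transcription factors such as Atf3, Jun and Sox11, and with them growth-associated proteins, small proline-rich proteins and the peptide galanin, while genes of the resting sensory neuron are turned down. Injured sensory neurons also release cytokines and peptides that act on microglia, immune cells and spinal neurons, which ties this programme to pain. The comparison at 1 d asks how far this response had begun in neurons of the ganglia that supply the crushed branches.

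The sham samples (Xin, 4, 10 and 18) held 24, 48, 47 and 96 cells that passed quality control, and 4002503 to 27504367 UMIs each. The 1 d samples (13, 16, 17-1 and 17-2) held 94, 96, 24 and 24 such cells, and 8703690 to 26681629 UMIs each. By the labels 17-2 held 8 indirectly and 16 directly injured neurons, and 17-1 held 12 of each. The median cell had 214660 UMIs and 8956 genes in sham, and 238091.5 UMIs and 9263 genes at 1 d. RNA of 3 of the 4 sham samples (Xin, 4 and 10) was reverse-transcribed in 2019. That of sham sample 18 and all 1 d samples was reverse-transcribed in 2020. Among these 8 samples the year and the surgery can thus be told apart only through sham sample 18. Where the year was a term in the fit of all 16 labelled samples, 7 d samples of both years entered its estimate too. Samples 17-1 and 17-2 were reverse-transcribed on the same date and were the most alike pair of samples within a group, and Xin was sequenced in an earlier run than the other 7 samples. The cells differed in their values from each other, and carried 96 different barcode numbers, which every plate uses again. Of 12 sensory neuron markers 11 were at 100 CPM or more in all 8 samples, among them Tubb3 (neuronal tubulin) at 1946 to 3796 CPM (counts scaled to a common library total, normalized by the TMM method) and Isl1 (a sensory neuron homeodomain factor) at 103 to 203 CPM, and Pou4f1 was at 6.76 to 16.0 CPM.

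Of 14239 genes tested with the quasi-likelihood test of edgeR, 0 (0.0%) passed an adjusted p of 0.05 at 1 d, and the smallest adjusted p was 0.518. At an unadjusted p under 0.05 there were 648 genes higher (4.55%) and 595 lower (4.18%) at 1 d. Without sample 17-1 both directions together went from 1243 to 673 genes, without 17-2 to 609, with both merged into 1 sample to 618 and without both to 294, whereas without sham sample 18 there were 1965. DESeq2, run as an alternative on the same sums, called 11 of 10093 genes higher (0.109%) and 6 lower (0.0594%) at an adjusted p of 0.05, and 1364 at an unadjusted p under 0.05. The median log2 fold change of all genes was -0.0059. In what follows a gene is therefore given by its level in each sample, and is called changed only by DESeq2 where that is said. In a sum over cells of several types, fewer cells of a type and less RNA per cell cannot be told apart.

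**Figure D1:**
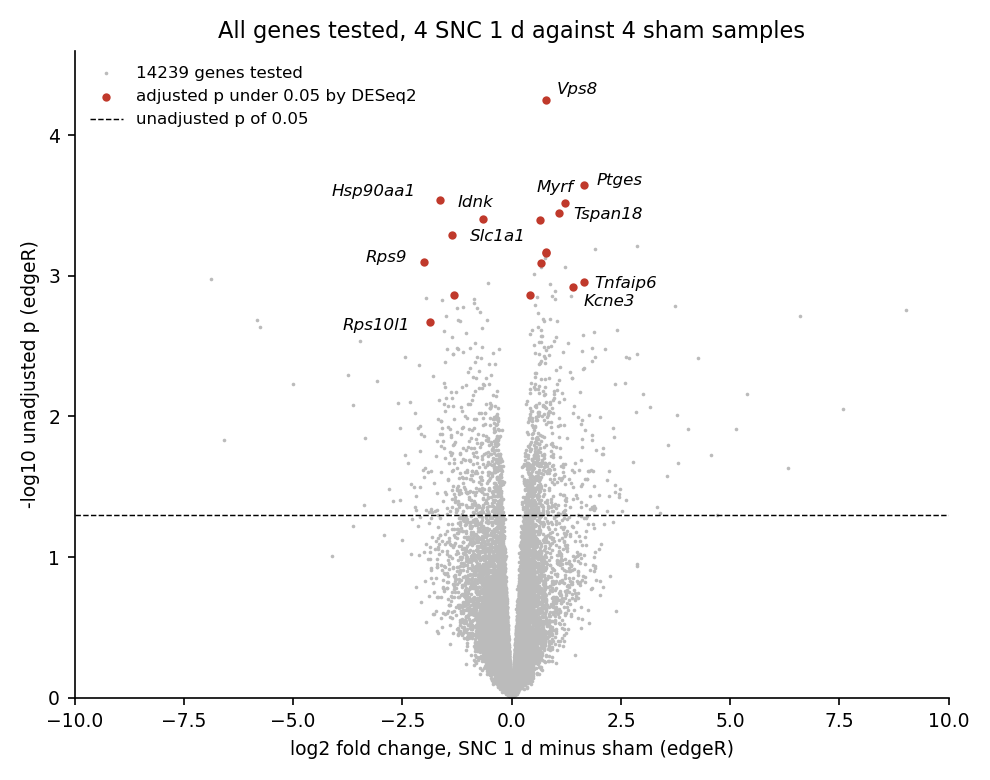
Each point is a gene, with the log2 fold change (SNC 1 d minus sham, x axis) and -log10 of the unadjusted p (y axis), both by edgeR from 4 samples a group. The 17 genes called by DESeq2 (red) lie at the top of the plot, with Vps8 highest, and none of the 14239 genes passed the adjusted test of edgeR.

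In 252 genes (1.77%) every 1 d sample was above every sham sample, and in 161 genes (1.13%) every 1 d sample was below. Among these, 54 higher and 27 lower genes also had an unadjusted p under 0.01 and at least 10 CPM in a group, and the 15 with the largest fold change at each end are described here. These genes were chosen for the gap between the groups in these very samples, so their values are a description. In 48 of the 54 higher genes and 22 of the 27 lower genes the 1 d sample farthest from sham was 17-1 or 17-2. These samples held only 24 cells each, against 94 and 96 in 1 d samples 13 and 16. The nearest sham sample was sample 18, the only sham sample of 2020, in 24 of the 54 higher and 20 of the 27 lower genes. With the year as a term 48 of the 54 and 13 of the 27 had an unadjusted p under 0.05, and in the 2020 samples alone 18 and 2, where the median log2 fold change was 0.57 and -0.41 against 0.76 and -0.71 over all samples.

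Several of the higher genes encode proteins that act or have targets outside the cell. They are described together after their values were seen, and most integrin, laminin and collagen genes, 33 of 49, had a log2 fold change below 0. Serpinb2, an inhibitor of plasminogen activators, was at 14.6, 0.543, 8.12 and 6.50 CPM in sham samples Xin, 4, 10 and 18, and at 24.5, 22.4, 42.5 and 37.01 CPM in 1 d samples 13, 16, 17-1 and 17-2 (log2 fold change 2.14 ± 0.63 SE, unadjusted p = 0.0033). Tnfaip6, a secreted protein that binds hyaluronan, was at 21.1, 7.15, 19.5 and 10.2 CPM in sham and at 47.1, 62.4, 44.3 and 25.3 CPM at 1 d (1.66 ± 0.42). It was among the genes called by DESeq2. The lowest 1 d sample of Tnfaip6, 17-2, was only just above the highest sham sample, Xin.

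Ccn4, a matricellular protein induced by Wnt signals, was low in both groups and tight within them, at 2.53, 4.26, 2.73 and 2.702 CPM in sham and at 12.5, 11.6, 8.57 and 13.3 CPM at 1 d (log2 fold change 1.90 ± 0.57). Cemip, which binds hyaluronan and promotes its breakdown, was at 3.08 to 6.57 CPM in sham and 9.45 to 18.3 CPM at 1 d. Ltbp1, which binds latent TGF-beta in the matrix, was at 6.61 to 16.6 CPM in sham and 18.5 to 38.3 CPM at 1 d. Tecta, a matrix protein best known from the tectorial membrane of the inner ear, was at 2.99 to 9.13 CPM in sham and 10.7 to 20.8 CPM at 1 d. All of them stood highest in 17-1 or 17-2.

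Ptges, Ptger3 and Ptgir act in prostaglandin signalling, and were put together after their values were seen. Ptges makes prostaglandin E2, a classical sensitizer of nociceptors, from its precursor. It was at 3.10, 7.79, 9.28 and 5.41 CPM in sham and at 14.5, 19.4, 19.4 and 29.7 CPM at 1 d (log2 fold change 1.66 ± 0.36, unadjusted p = 0.000226), and DESeq2 called it. Ptger3, a receptor for prostaglandin E2, was at 3.10, 6.34, 6.71 and 8.00 CPM in sham and at 1.296, 2.06, 0.659 and 2.18 CPM at 1 d (-1.97 ± 0.52, unadjusted p = 0.00145), and DESeq2 gave no adjusted p for it. Ptgir, the prostacyclin receptor and the most abundant of the receptor genes listed, overlapped between the groups, at 109 to 166 CPM in sham and 158 to 180 CPM at 1 d.

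The other higher genes have varied roles. Gsta4, a glutathione transferase that clears products of lipid peroxidation, had the largest fold change, but its sham samples were far apart: 21.7, 0.543, 1.08 and 14.3 CPM against 25.4, 51.0, 69.7 and 36.4 CPM at 1 d (log2 fold change 2.36 ± 0.75). Vps8, a subunit of the CORVET complex that tethers early endosomes, had the smallest p of all genes (5.66e-05). It was at 27.9, 22.6, 28.8 and 28.7 CPM in sham and at 45.8, 38.7, 47.7 and 54.4 CPM at 1 d (0.79 ± 0.15). Its sham samples were close to each other, and DESeq2 called it higher.

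Further genes called higher by DESeq2 were Myrf, Tspan18, Slc1a1, Ier3, Eif4e3, Gmeb1, Riok1 and Kcne3. Myrf, a membrane-bound transcription factor known for myelination in the central nervous system, was at 10.97, 8.78, 10.9 and 13.6 CPM in sham and at 13.8, 22.7, 33.5 and 34.5 CPM at 1 d, so that 1 d sample 13 stood beside sham sample 18. Tspan18, a tetraspanin, was at 31.5, 24.2, 24.7 and 16.3 CPM in sham and at 38.3, 48.0, 52.2 and 63.1 CPM at 1 d (1.07 ± 0.24). Slc1a1, the neuronal glutamate and cysteine transporter, was at 26.7, 33.6, 33.2 and 33.7 CPM in sham and at 44.6, 49.2, 55.5 and 52.4 CPM at 1 d (0.66 ± 0.15). Kcne3, a potassium channel beta subunit, was at 18.9, 23.8, 48.1 and 23.5 CPM in sham and at 42.8, 74.3, 103 and 87.2 CPM at 1 d (1.41 ± 0.36), and sham sample 10 overlapped with 1 d sample 13. Eif4e3, a protein that binds the mRNA cap, was at 24.6 to 37.1 CPM in sham and 40.4 to 54.5 CPM at 1 d. Gmeb1, a modulator of glucocorticoid responses, was at 13.2 to 17.6 and 19.3 to 31.6 CPM, and Riok1, a kinase of ribosome assembly, at 53.6 to 60.7 and 70.6 to 86.3 CPM, and neither overlapped between the groups.

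Sema5a, an axon guidance protein, was at 4.22, 10.9, 10.3 and 9.79 CPM in sham and at 11.1, 17.4, 36.0 and 46.9 CPM at 1 d (1.62 ± 0.46), with the 1 d samples spread over a wider range than the sham samples. Mchr1, the receptor of melanin-concentrating hormone, was at 11.2 to 21.3 CPM in sham and 25.6 to 38.5 CPM at 1 d. Slc39a14, a zinc and iron importer, was at 1.41 to 7.41 CPM in sham and 9.26 to 14.0 CPM at 1 d. Clic2, of the chloride intracellular channel family, was at 4.22 to 7.49 CPM in sham and 12.5 to 15.6 CPM at 1 d. The last of the 15 genes has only a name taken from its assembly contig and is not described.

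**Figure D2:**
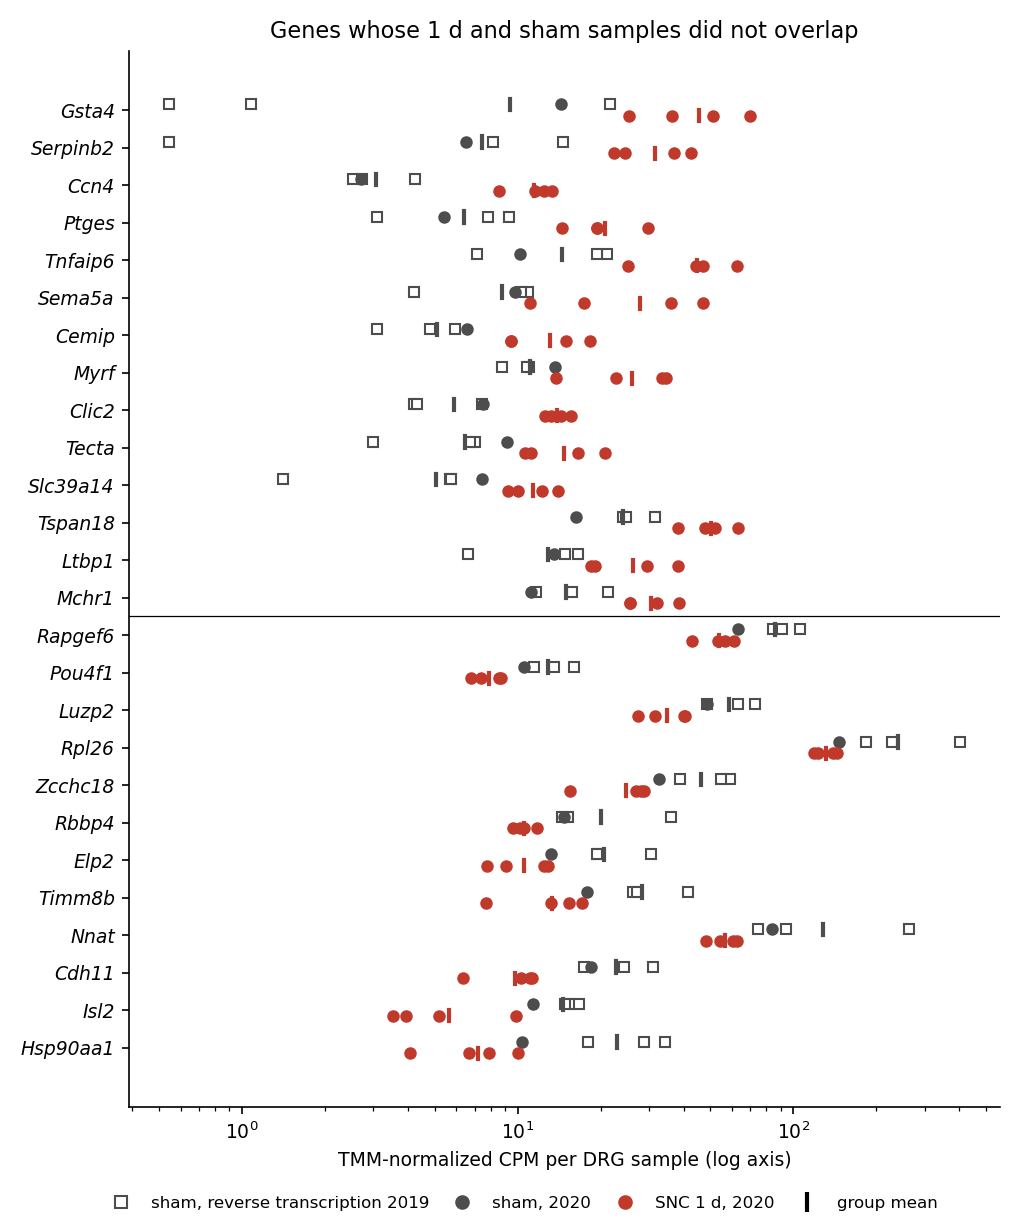
TMM-normalized CPM (x axis, log scale) in each DRG sample for the genes with symbols among the 15 at each end of the fold change, chosen because the 4 sham and 4 SNC 1 d samples did not overlap. Open squares are sham samples reverse-transcribed in 2019, filled grey circles sham sample 18, red circles 1 d samples and bars group means. The gap between sham sample 18 and the nearest 1 d sample is narrow in Myrf, Hsp90aa1, Rpl26 and Elp2.

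Isl2 and Pou4f1, transcription factors of sensory neuron development, were among the genes with lower levels at 1 d. Isl2, a LIM homeodomain factor, was at 15.5, 14.8, 16.7 and 11.4 CPM in sham and at 9.83, 5.18, 3.95 and 3.54 CPM at 1 d (log2 fold change -1.35 ± 0.40, unadjusted p = 0.00358). Pou4f1, known as Brn3a, was at 16.0, 13.6, 11.5 and 10.5 CPM in sham and at 7.35, 8.74, 8.57 and 6.76 CPM at 1 d (-0.71 ± 0.24). Isl1 overlapped, at 129, 198, 203 and 182 CPM in sham and 147, 162, 133 and 103 CPM at 1 d (-0.39 ± 0.17). Of the 12 sensory neuron markers listed, 0 passed the adjusted test. At an unadjusted p under 0.05, 4 (33.3%, against 4.18% of all genes) were lower and 0 higher. The lower ones were Pou4f1, Isl1, Tubb3 and Uchl1, a ubiquitin hydrolase of neurons. Over all 12 the log2 fold change was below 0 in 8 and above 0 in 4 (Nefl, Avil, Slc17a6 and Snap25). Xin was the highest sample in Tubb3 and Uchl1, and in the 2020 samples alone the log2 fold change of Tubb3 was 0.05.

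Cdh11, a cadherin, was at 17.4, 31.0, 24.4 and 18.4 CPM in sham and at 11.1, 6.33, 11.3 and 10.3 CPM at 1 d (-1.23 ± 0.34). Nnat, a small membrane proteolipid of developing neurons, was at 262, 74.4, 94.6 and 83.6 CPM in sham and at 54.1, 60.5, 48.2 and 62.8 CPM at 1 d (-1.18 ± 0.32), and Xin stood far above the other sham samples. Idnk, a gluconate kinase, was at 94.8, 76.8, 66.2 and 73.7 CPM in sham and at 52.5, 52.2, 41.8 and 48.9 CPM at 1 d (-0.67 ± 0.15), and DESeq2 called it lower. Rapgef6, an activator of the GTPase Rap, was at 106, 84.3, 91.2 and 62.9 CPM in sham and at 43.0, 61.0, 56.8 and 53.5 CPM at 1 d. Zcchc18, a zinc finger protein, Luzp2, a leucine zipper protein, Timm8b, a chaperone of mitochondrial import, Elp2, of the Elongator complex, and Rbbp4, a histone chaperone, had log2 fold changes from -1.06 to -0.74.

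Hsp90aa1, Rps9 and Rps10l1 belong to families with near-identical copies, where counting can move reads between copies, so their values are uncertain. Hsp90aa1, a cytosolic chaperone, was at 34.3, 18.0, 28.8 and 10.4 CPM in sham and at 7.89, 10.1, 4.06 and 6.65 CPM at 1 d (-1.64 ± 0.36). Rps9 was at 45.9, 12.8, 30.9 and 7.05 CPM in sham and at 6.48, 7.24, 3.95 and 5.72 CPM at 1 d, and Rps10l1 at 84.1, 22.5, 30.3 and 8.58 CPM against 13.1, 9.10, 8.13 and 8.53 CPM. DESeq2 called all of these lower. Rps9 and Rps10l1 were far below the median ribosomal protein gene (473.9 CPM), sham sample 18 lay among the 1 d samples in both, and in the 2020 samples alone the log2 fold change was 0.17 for Rps10l1 against -1.87 over all samples, -0.27 for Rps9 against -2.01, and -0.53 for Hsp90aa1. RGD1359290, which DESeq2 called lower as well, was at 130, 48.4, 53.4 and 40.1 CPM in sham and 37.4, 27.7, 18.0 and 24.1 CPM at 1 d. The sixth gene called lower, listed only under the provisional name LOC100362027, was at 180.1, 104, 104 and 81.2 CPM in sham and 74.8, 40.5, 30.9 and 35.7 CPM at 1 d (-1.36 ± 0.32).

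The promoters of some of these genes hold motifs that injury and activity signals are known to use: the AP-1 motif, bound by Jun and Fos family dimers, and the cAMP response element (CRE), bound by Creb and by Atf3-type dimers. RefSeq promoters of the rat assembly GRCr8, from 250 bases before to 50 after the gene start, were searched on both strands for TGANTCA (AP-1) and TGACGTCA (CRE). No match of either motif is a match of the other. Of the 27457 genes with a promoter in the table, 8.04% held the AP-1 motif and 2.0% the CRE. Of 21 higher genes described here or called by DESeq2, 11 were in the table, 2 with AP-1 (Tnfaip6 and Serpinb2) and 1 with the CRE (Ltbp1). Of 16 lower genes 10 were in the table, 0 with AP-1 and 2 with the CRE (Isl2 and Rpl26). Both promoters with AP-1 are shown, and for the CRE that of Isl2, which had the largest fold change of the 3 genes with that motif, and the capitals mark the motif. The match starts 192 bases before the gene start in Tnfaip6 (chr3:56911148-56911447, plus strand), 189 bases before it in Serpinb2 (chr13:24055771-24056070, plus strand) and 74 bases before it in Isl2 (chr8:64819629-64819928, plus strand).
Tnfaip6: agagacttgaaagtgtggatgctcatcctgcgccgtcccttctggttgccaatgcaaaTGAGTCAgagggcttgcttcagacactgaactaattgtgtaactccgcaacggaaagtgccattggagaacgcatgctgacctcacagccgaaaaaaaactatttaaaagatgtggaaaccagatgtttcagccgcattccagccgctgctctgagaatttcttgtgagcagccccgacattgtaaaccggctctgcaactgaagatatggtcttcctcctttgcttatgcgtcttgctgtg
Serpinb2: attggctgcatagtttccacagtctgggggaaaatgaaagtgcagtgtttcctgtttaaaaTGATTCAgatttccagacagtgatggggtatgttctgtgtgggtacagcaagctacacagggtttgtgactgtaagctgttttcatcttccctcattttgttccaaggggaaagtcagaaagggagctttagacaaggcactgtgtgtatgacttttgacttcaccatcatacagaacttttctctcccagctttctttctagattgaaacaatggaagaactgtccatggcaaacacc
Isl2: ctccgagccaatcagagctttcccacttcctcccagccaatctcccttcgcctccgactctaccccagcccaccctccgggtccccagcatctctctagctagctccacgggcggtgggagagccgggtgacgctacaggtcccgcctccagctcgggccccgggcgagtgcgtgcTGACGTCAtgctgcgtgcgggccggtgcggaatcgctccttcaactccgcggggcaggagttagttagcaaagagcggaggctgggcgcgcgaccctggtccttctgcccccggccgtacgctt
A match is a description of the letters in the window and does not show that a factor binds there.

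In the classical injury genes the samples of the 2 groups overlapped. Atf3, the injury-induced factor, was at 1070, 363, 540 and 466 CPM in sham and at 447, 661, 544 and 448 CPM at 1 d (log2 fold change -0.21 ± 0.26). Sprr1a, a small proline-rich protein of growing axons, was at 318, 65.2, 167 and 94.2 CPM in sham and at 141, 161, 233 and 120 CPM at 1 d (0.04 ± 0.41). Gal, the precursor of galanin, was at 2616, 605, 1141 and 722 CPM in sham and at 717, 1058, 763 and 525 CPM at 1 d (-0.73 ± 0.36). In each of these the highest sham sample was Xin.

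Jun was at 840, 302, 439 and 295 CPM in sham and at 309, 360, 351 and 349 CPM at 1 d (-0.45 ± 0.28). Gap43, a growth cone protein, was at 1370 to 2302 CPM in sham and 1225 to 1739 CPM at 1 d (-0.22 ± 0.17). Ecel1, an endopeptidase of injured neurons, was at 63.1 to 253 CPM in sham and 96.8 to 151 CPM at 1 d, and Sox11 at 6.52 to 20.8 CPM and 11.8 to 16.5 CPM. Npy was listed at 0 UMIs in all 8 samples. Rps6, a ribosomal protein, and Fth1, a ferritin chain, which every cell uses, were listed at 0 too, so a listed 0 may come from the counting and does not show that a gene was not expressed. With sham sample 18 as the only sham sample, the log2 fold change was 0.16 for Atf3, 0.20 for Jun, 0.08 for Gal and 0.25 for Ecel1, of opposite sign to the values over all 8 samples.

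The levels of these genes in labelled sham neurons lay near those at all times after SNC and above those in the further sham libraries of the series, labelled as sham at 0, 1, 3 or 7 d. Atf3 was at 430 to 582 CPM at 3 d, 365 to 647 CPM at 7 d and 72.7 to 176 CPM in the 7 further sham libraries. Sprr1a was at 120 to 160 CPM at 3 d, 54.1 to 204 CPM at 7 d and at most 0.196 CPM in the further sham libraries, and Gal at 836 to 1372 CPM, 738 to 1319 CPM and at most 20.7 CPM. The further sham libraries differ from labelled sham in more than the surgery, and were not tested against it here.

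Counted by cell, Atf3 reached 100 CPM or more in 86.9% ± 11.2 (SD, n = 4) of sham cells and 94.0% ± 5.28 (n = 4) of 1 d cells, with an exact two-sided permutation p of 0.343 over samples. Sprr1a did so in 79.2, 22.9, 55.3 and 22.9% of cells in sham samples Xin, 4, 10 and 18, and in 40.4, 39.6, 62.5 and 50.0% of cells in 1 d samples 13, 16, 17-1 and 17-2 (exact permutation p = 0.857). Gal, Jun and Gap43 did so in a mean of 89.8, 93.2 and 99.0% of sham cells and 91.1, 95.5 and 100% of 1 d cells, and Sox11 in 2.09% and 0.526%. The adjusted exact permutation p was 1.0 for all 6 genes, where the smallest p that 4 against 4 samples allow is 0.0286.

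**Figure D3:**
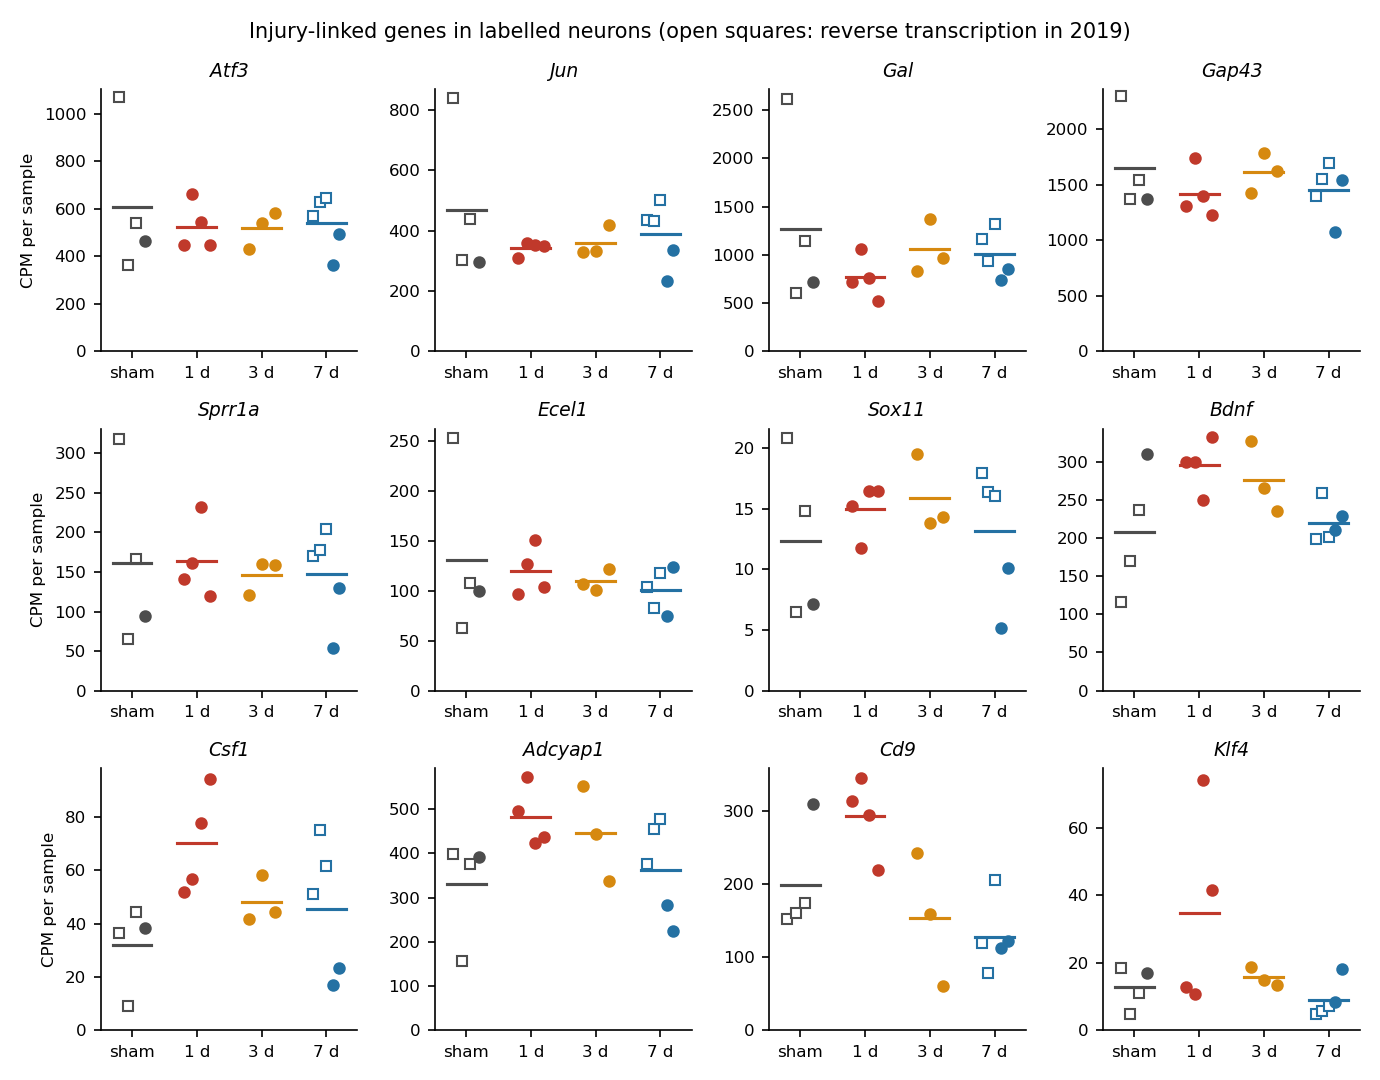
TMM-normalized CPM (y axis, from 0) of 12 injury-linked genes in each DRG sample of labelled sham, SNC 1 d, 3 d and 7 d, with the group mean as a line. Open squares are samples reverse-transcribed in 2019; for Atf3, Jun, Gal, Gap43 and Ecel1 the highest sham point is Xin, and Csf1 and Adcyap1 have every 1 d point above every sham point.

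Some signalling genes of the injury lists were higher at 1 d at an unadjusted p. Of 29 injury effector genes tested, 0 passed the adjusted test, 4 (13.8%, against 4.55% of all genes) were higher and 1 (3.45%, against 4.18%) lower at an unadjusted p under 0.05, and the median log2 fold change was -0.07, or 0.30 without Xin. Csf1, the cytokine by which injured sensory neurons activate spinal microglia, was at 36.6, 8.97, 44.3 and 38.4 CPM in sham and at 51.7, 56.8, 77.8 and 94.1 CPM at 1 d (1.13 ± 0.45), with no overlap. Bdnf, a neurotrophin released onto spinal neurons, was at 116, 169, 236 and 310 CPM in sham and at 300, 299, 249 and 333 CPM at 1 d (0.50 ± 0.21), and sham sample 18 lay among the 1 d samples. Tnfrsf12a, the TWEAK receptor, was at 34.3 to 70.3 CPM in sham and 60.2 to 101.9 CPM at 1 d, and Rab32, a GTPase of organelle traffic, at 2.19 to 5.80 and 3.89 to 24.4 CPM.

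Of 18 injury transcription factors tested, 3 (16.7%, against 4.55% of all genes) were higher and 0 lower at an unadjusted p under 0.05, 12 of 18 had a log2 fold change below 0, and the median was -0.04, or 0.25 without Xin. Klf4, a zinc finger factor that limits axon growth, was at 18.6, 4.71, 11.02 and 16.9 CPM in sham and at 12.7, 10.8, 74.2 and 41.5 CPM at 1 d (1.45 ± 0.57). The 2 high samples were 17-1 and 17-2, and without them the log2 fold change was -0.10. Creb5, a factor of the CRE-binding family, was at 2.53 to 9.31 CPM in sham and 8.04 to 17.4 CPM at 1 d. Of 21 immediate early genes tested, 16 were above 0 and 5 below (median 0.16, and -0.23 to 0.31 over the alternatives). At an unadjusted p under 0.05, 3 (14.3%, against 4.55%) were higher. Klf4 and Atf3 are in this list too, so the shares of the 2 lists are not independent. Ier3, an early response gene of survival signalling that DESeq2 called, was at 43.9, 26.8, 34.0 and 36.6 CPM in sham and at 69.8, 44.1, 67.4 and 59.98 CPM at 1 d (0.78 ± 0.19), so that its lowest 1 d sample, 16, stood beside Xin.

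Neuropeptide genes were spread widely over the sham samples. Adcyap1, which encodes the peptide PACAP, was at 400, 156, 375 and 393 CPM in sham and at 495, 572, 423 and 437 CPM at 1 d (log2 fold change 0.54 ± 0.27, unadjusted p = 0.0599). The groups did not overlap, and sham sample 4 stood apart from the other 3. Without sham sample 4 the log2 fold change was 0.31. Cartpt, the CART peptide precursor, was at 8.16, 16.8, 11.6 and 35.5 CPM in sham and at 36.96, 65.1, 39.2 and 24.7 CPM at 1 d (1.18 ± 0.46), and Vgf, a granin-like precursor, at 131 to 261 CPM in sham and 194 to 261 CPM at 1 d. Calca, which encodes CGRP, was at 328, 1103, 1165 and 2079 CPM in sham and at 2156, 1878, 1171 and 1419 CPM at 1 d (0.50 ± 0.37). The summed level of 10 markers of peptidergic neurons, of which Calca is the most abundant, was at 1425, 1970, 2718 and 4014 CPM in sham and 4082, 4053, 2670 and 3107 CPM at 1 d. Xin was the lowest and sham sample 18 as high as 1 d samples 13 and 16, and the part of the mix of neurons in the peptide values was not tested. Of 26 neuropeptide genes, 2 (7.69%, against 4.55% of all genes) were higher and 0 lower at an unadjusted p under 0.05, with a median of 0.01.

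Cd9, a tetraspanin of the cell surface, was at 152, 160, 174 and 310 CPM in sham and at 314, 345, 295 and 219 CPM at 1 d (0.55 ± 0.35), and sham sample 18 stood with the 1 d samples. In the 2020 samples alone its log2 fold change was -0.09. At 3 d it was at 60.6 to 242 CPM and at 7 d at 79.0 to 206 CPM.

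Ion channels of pain sensing gave no gene that passed the adjusted test. Trpv1, the capsaicin receptor, was at 21.7, 38.4, 85.8 and 96.3 CPM in sham and at 73.6, 59.7, 64.1 and 66.0 CPM at 1 d (0.11 ± 0.43). Trpa1, a sensor of irritants, was at 24.5 to 52.5 CPM in sham and 18.7 to 68.8 CPM at 1 d (-0.11 ± 0.45). Scn10a, the nociceptor sodium channel Nav1.8, was at 64.7 to 188 CPM in sham and 131 to 165 CPM at 1 d (0.31 ± 0.31). In all 3 genes the groups overlapped, and the sham samples spanned a wider range than the group means differed by.

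Of 19 TRP channel genes 0 passed an unadjusted p of 0.05, and of 13 sodium channel genes 1 was lower. That was Scn3b, a sodium channel beta subunit, at 128 ± 39.6 CPM in sham and 92.6 ± 6.41 CPM at 1 d (SD, n = 4). Of 68 potassium channel genes 5 were higher and 3 lower, with a median of 0.12. Kcnq5, a subunit of the M current, was at 21.4, 32.2, 28.3 and 50.9 CPM in sham and at 33.3, 61.2, 64.8 and 73.3 CPM at 1 d (0.79 ± 0.31), and Kcnn1, a small-conductance calcium-activated channel, at 30.1, 13.4, 10.2 and 4.13 CPM against 5.64, 5.93, 3.19 and 2.39 CPM (-1.70 ± 0.59). Of 19 calcium channel genes 1 was higher (Cacna1a, of P/Q-type channels, 29.3 to 42.6 CPM in sham and 40.2 to 65.6 CPM at 1 d), with a median of 0.15. Of 27 receptors coupled to G proteins 2 were higher and 1 lower, the higher ones being Gabbr1, a GABA-B receptor subunit (90.3 to 140 CPM in sham, 135 to 205 CPM at 1 d), and Adora1, the adenosine A1 receptor (6.75 to 10.9 and 10.8 to 20.1 CPM). These shares lie near the 4.55% and 4.18% of all genes.

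Cytoplasmic ribosomal protein genes were the list with the largest share of members on one side of 0 (98.6%), followed by nuclear genes of oxidative phosphorylation (89.3%), the cytoskeleton (86.5%) and the proteasome (86.4%), all below 0. Of 71 cytoplasmic ribosomal protein genes tested, 70 were below 0 on the log2 scale and 44 (62.0%) were lower at an unadjusted p under 0.05, against 4.18% of all genes, while 0 passed the adjusted test of edgeR and DESeq2 called 2, Rps9 and Rps10l1. The median log2 fold change was -0.30. Rpl41, the most abundant of them, was at 1449, 1159, 1059 and 971 CPM in sham and at 914, 1093, 893 and 853 CPM at 1 d (-0.30 ± 0.12), so that 1 d sample 16 lay among the sham samples. Rpl31 was at 286, 142, 167 and 108 CPM in sham and at 107, 115, 80.1 and 81.1 CPM at 1 d (-0.86 ± 0.23), and Rpl26, the only ribosomal gene with no overlap, at 404, 183, 228 and 147 CPM against 140, 145, 123 and 119 CPM (-0.86 ± 0.23).

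These counts rest on few samples. Xin had the highest level in 59 of the 71 genes, and 17-1 or 17-2 the lowest in 61. The summed level of all 78 ribosomal protein genes was at 43440, 30710, 30200 and 27660 CPM in sham and 26680, 30660, 24730 and 23680 CPM at 1 d, so that sample 16 was close to sham samples 4 and 10. Without Xin 10 genes were lower at an unadjusted p under 0.05, without 17-1 there were 21, without 17-2 there were 18, without both of these 5, and in the 2020 samples alone 1.

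Of 37 cytoskeleton genes, 32 were below 0, 9 (24.3%, against 4.18% of all genes) were lower and 0 higher at an unadjusted p under 0.05, and the median was -0.22. Actb, cytoplasmic beta-actin, was at 882, 412, 449 and 260 CPM in sham and at 337, 234, 272 and 252 CPM at 1 d (-0.87 ± 0.30), and Actg1, gamma-actin, at 116, 58.5, 70.1 and 45.5 CPM against 47.3, 36.0, 42.5 and 37.5 CPM. Tubb3 was at 3796, 2264, 2346 and 1965 CPM in sham and at 1946, 2199, 2073 and 1955 CPM at 1 d (-0.34 ± 0.16). In the 2020 samples alone the log2 fold change of Actb was 0.07 and that of Tubb3 was 0.05. Of 75 nuclear genes of oxidative phosphorylation 11 (14.7%) were lower and 0 higher (median -0.15), and of 44 proteasome genes 4 (9.09%) were lower and 0 higher (median -0.12). The 13 genes of the mitochondrial genome had a median of 0.10, and 1, Mt-nd4, a complex I subunit, was higher, at 6.47, 20.5, 15.7 and 20.7 CPM in sham and 28.1, 24.3, 33.9 and 23.9 CPM at 1 d.

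**Figure D4:**
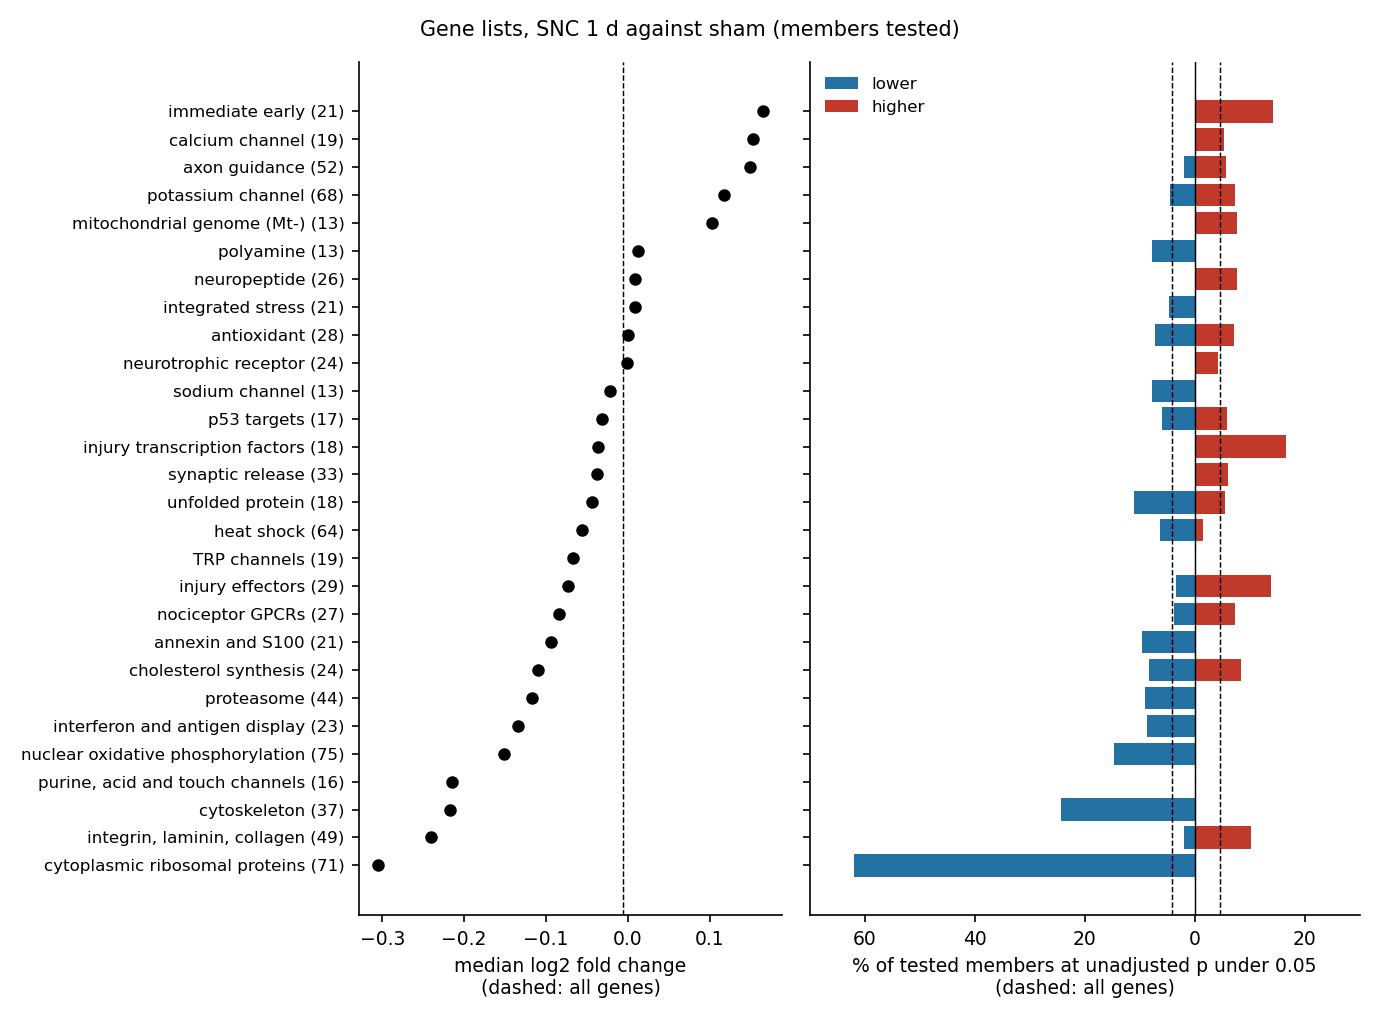
For each gene list with at least 10 genes tested (number in brackets), the left panel shows the median log2 fold change (SNC 1 d minus sham) and the right panel the percent of tested members lower (blue, left of 0) and higher (red, right of 0) at an unadjusted p under 0.05; dashed lines give the same over all 14239 genes. Cytoplasmic ribosomal proteins stand out with 62.0% lower, 0 genes of any list passed the adjusted test of edgeR, and DESeq2 called 5.

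**Figure D5:**
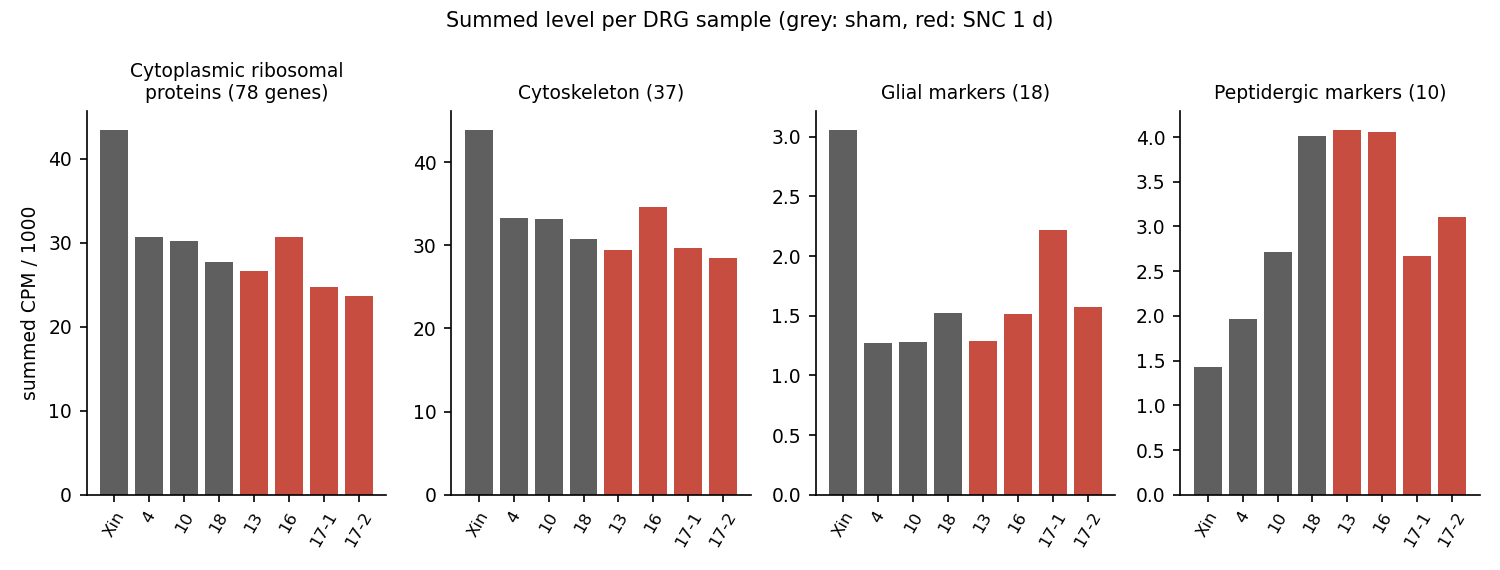
Summed TMM-normalized CPM (y axis from 0, divided by 1000) of 4 gene lists in each DRG sample, sham in grey and SNC 1 d in red. Xin is the highest bar for ribosomal proteins, cytoskeleton and glial markers and the lowest for peptidergic markers, and 1 d sample 16 is as high as sham samples 4 and 10 for ribosomal proteins.

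Metabolic and stress lists were mixed. Among 24 genes of cholesterol synthesis, 2 were higher and 2 lower at an unadjusted p under 0.05. Srebf2, the master factor of the pathway, was at 77.95, 77.97, 69.5 and 95.3 CPM in sham and at 91.0, 101, 130 and 140 CPM at 1 d (0.52 ± 0.14), and Hsd17b7, a late enzyme, at 14.1, 14.0, 13.5 and 19.2 CPM against 24.2, 19.1, 32.3 and 27.1 CPM. Mvk, mevalonate kinase, was at 45.3, 9.24, 14.9 and 7.30 CPM in sham and at 8.12, 6.81, 6.81 and 7.69 CPM at 1 d. Of 18 genes of the unfolded protein response 1 was higher and 2 lower, the higher one being Dnajb9, a chaperone of the endoplasmic reticulum, at 140 to 170 CPM in sham and 177 to 221 CPM at 1 d with no overlap. Of 64 heat shock genes 1 was higher and 4 lower, and Hspb1, the most abundant, was at 1732 to 3188 CPM in sham and 1633 to 2330 CPM at 1 d. Of 28 antioxidant genes 2 were higher and 2 lower, of 21 genes of the integrated stress response 0 and 1, of 17 p53 targets 1 and 1, of 13 polyamine genes 0 and 1, of 23 interferon and antigen display genes 0 and 2, and of 21 annexin and S100 genes 0 and 2. Over these lists the share of members was 0.0 to 8.33% higher and 4.76 to 11.1% lower, beside 4.55% and 4.18% of all genes.

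Of 52 axon guidance genes 3 were higher and 1 lower (median 0.15), among them Sema6d, a semaphorin, at 41.9, 44.2, 50.6 and 64.3 CPM in sham and 59.7, 61.1, 70.1 and 85.9 CPM at 1 d (0.45 ± 0.17). Of 49 integrin, laminin and collagen genes 5 were higher and 1 lower while the median was -0.24, and Lamb1, a laminin chain, was at 5.91, 4.17, 14.3 and 13.5 CPM in sham and 9.60, 11.4, 30.2 and 31.5 CPM at 1 d. In both genes 17-1 and 17-2 were the highest samples. Of 33 genes of synaptic release 2 were higher and 0 lower, of 24 neurotrophic receptor genes 1 and 0, and of 16 purine, acid and touch channel genes 0 and 0. Over these lists 0.0 to 10.2% of members were higher and 0.0 to 2.04% lower, beside 4.55% and 4.18% of all genes.

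Glial markers were present in all 8 samples, and markers of immune cells, vessels and blood at low level. The sum of 18 glial markers was at 3058, 1273, 1283 and 1522 CPM in sham and at 1292, 1517, 2214 and 1571 CPM at 1 d, highest in Xin and 17-1. Pmp22, a peripheral myelin protein that neurons also express, was at 740 to 1115 CPM, which was 36.5% of the sum in Xin, 36.3% in 17-1 and 47.1% in 17-2, and 54.4 to 68.4% in the other 5 samples. Apoe, an apolipoprotein of satellite glia, was at 823, 96.8, 111 and 187 CPM in sham and at 113, 105, 558 and 246 CPM at 1 d. Sparc, a matrix glycoprotein, was at 286 CPM in Xin, 132 CPM in 17-1 and 23.0 to 62.6 CPM in the other 6 samples. Kcnj10, the potassium channel of satellite glia, and Cldn5, of vessel walls, were listed at 0 UMIs in all 8 samples, and Ptprc, of blood-derived immune cells, was at most 0.416 CPM. Of 16 glial markers tested 0 were higher or lower at an unadjusted p under 0.05 (4.55% and 4.18% of all genes). Immune markers summed to 13.8 to 38.7 CPM in sham and 18.1 to 26.4 CPM at 1 d, vessel and fibroblast markers to 3.44 to 16.2 and 4.19 to 15.6 CPM, blood markers to 1.41 to 15.8 and 3.30 to 22.3 CPM, and cell cycle genes to 114.7 to 141.9 and 131.3 to 163 CPM. The summed markers of somatostatin neurons were at 123, 125, 214 and 380 CPM in sham and at 286, 128, 38.3 and 79.7 CPM at 1 d, lowest in 17-1 and 17-2, and those of neurofilament neurons at 837 to 2023 and 1380 to 1860 CPM. In 7 further marker lists 0 genes were higher or lower at an unadjusted p under 0.05. They were those for nonpeptidergic (7 genes tested), somatostatin (6), neurofilament (10) and peptidergic (9) neurons, immune cells (6), vessels and fibroblasts (6), and the cell cycle (11). For cold-sensing and C-fibre touch neurons 1 of 6 genes tested (16.7%, against 4.18% of all genes) was lower, and for blood 1 of 5 (20.0%). The blood gene was at most 0.995 CPM in any of the 8 samples. The part of glial RNA and of the mix of neurons in the values of Xin, 17-1 and 17-2 was not tested.

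The genes with separated groups or called by DESeq2 differed in how many cells reached 100 CPM or more. Kcne3 reached that level in 4.17, 4.17, 8.51 and 5.21% of cells in sham samples Xin, 4, 10 and 18, and in 5.32, 14.6, 25.0 and 33.3% of cells in 1 d samples 13, 16, 17-1 and 17-2. Tnfaip6 did so in 8.33, 0.0, 2.13 and 1.04% of sham cells and 10.6, 11.5, 16.7 and 4.17% of 1 d cells, and Tspan18 in 3.13 to 8.33% and 5.32 to 29.2%. Gsta4 and Ptges had 0 such cells in sham, and at 1 d Gsta4 had them in 3.19, 4.17, 16.7 and 0.0% of cells and Ptges in 2.13, 3.13, 0.0 and 8.33%. Rapgef6 did so in 33.3, 33.3, 34.0 and 13.5% of sham cells and 5.32, 11.5, 12.5 and 8.33% of 1 d cells. Rpl26 reached 100 CPM in most cells of both groups, at 78.1 to 95.8% in sham and 66.7 to 78.7% at 1 d. Cells at this level were thus a minority for the other genes named here and a majority for Rpl26. Xin, 17-1 and 17-2 held 24 cells each, so their shares rest on few cells.

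Of the 54 higher genes the mean was nearer, on the log2 scale, to sham than to 1 d in 32 at 3 d and in 37 at 7 d, and of the 27 lower genes in 10 at 3 d and in 22 at 7 d. Serpinb2 was at 8.19 to 13.6 CPM at 3 d and 1.67 to 12.0 CPM at 7 d, Tspan18 at 10.4 to 21.8 and 17.9 to 27.4 CPM, and Vps8 at 31.0 to 34.6 and 28.4 to 37.1 CPM. Ptges was at 8.72 to 14.6 CPM at 3 d and 6.88 to 20.5 CPM at 7 d, and Gsta4 at 8.62 to 23.7 and 12.3 to 31.3 CPM. Gmeb1 was nearer to its 1 d mean of 25.5 CPM at both times, with means of 20.97 CPM at 3 d and 20.8 CPM at 7 d against 14.7 CPM in sham, as was Ltbp1 at 3 d, with 20.07 CPM against 26.3 CPM at 1 d and 12.9 CPM in sham. The lower gene Cdh11 was at 18.1 to 31.5 CPM at 3 d and 7.53 to 27.9 CPM at 7 d, and Isl2 at 8.26 to 8.99 and 5.02 to 20.1 CPM. These genes were chosen for their values at 1 d, and differences between the times were not tested. The times also differ in the year of reverse transcription. All 3 d samples (14, 15 and 17-3) were of 2020, as were all 1 d samples. The 7 d samples S, 8 and 9 were of 2019, as were sham samples Xin, 4 and 10, and 7 d samples 19-1 and 19-2 were of 2020. The part of the year in these counts was not tested.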

How the data were processed

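Single DRG neurons were sequenced by a modified Smart-seq2 protocol with UMIs. The deposited values are whole UMI counts per gene and cell; the authors aligned reads with STAR to the rat Rnor_6.0 transcriptome, assigned them with featureCounts (Subread) and SAMtools and collapsed UMIs with UMI-tools (per the labels and methods). Versions are not given in the labels. The files hold no coordinates.

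Counts of cells with at least 500 genes, 1000 UMIs and under 5% of UMIs in the 13 Mt- genes were summed per DRG sample, 4002503 to 27504367 UMIs each (Python 3.11.15, pandas 2.3.3, SciPy 1.17.1). No cells were clustered and no doublet caller was run. SNC 1 d was compared with sham by edgeR 4.0.16 (R 4.3.3; quasi-likelihood test, TMM, filterByExpr, Benjamini-Hochberg) with all 16 labelled DRG samples in 4 groups in 1 fit, so that the groups share an estimate of the spread. CPM are TMM-normalized and are shares of RNA. Errors are SE of the fit, or SD where said. The fit was tested on simulated data. Pairs of samples of a group differed by more than counting error (chi-square divided by its degrees of freedom, 10.7 to 45.5). It was lowest for 17-1 with 17-2, and the next lowest was 18.2. None were merged in the main comparison. This measure is set against counting error alone, so it cannot show that samples came from different rats.

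Named genes were those with an adjusted p under 0.05 in edgeR or DESeq2, the 15 at each end of the fold change among genes with at least 10 CPM in a group, unadjusted p under 0.01 and no overlap, members of textbook lists with an unadjusted p under 0.05 or the highest level, and genes the study names; the text gives a selection of 86 of these. Lists were counted, not tested. The groups, genes and lists were chosen with earlier results of these data known. Alternatives were DESeq2 1.42.0, its size factors, no low-count filter, 8 samples only, each sample left out, 17-1 and 17-2 merged or left out, year of reverse transcription (from the study's sample table) as a term, 2020 samples only, cells thinned to 20000 UMIs (11 sham and 10 1 d cells were shallower) and robust dispersion. SE, SD and p-values rest on the spread between DRG samples.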

Additional observations from a re-analysis of the deposited data

Results flagged for a closer look

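A sample was set apart when its gap to the next sample of its group of 4 exceeded the 95% limit of Dixon's test (0.829 of the group's range). Of 250 groups of values tested 20 did, where chance alone gives about 1 in 20, and in 9 of the 20 the sample was Xin. No explanation was tested.

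Among the genes with separated groups or called by DESeq2, Xin stood apart from the other sham samples in Sema5a (4.22 CPM), Slc1a1 (26.7 CPM), Nnat (262.3 CPM), Rbbp4 (36.0 CPM) and RGD1359290 (129.7 CPM). Sham sample 4 did so in Ccn4 (4.26 CPM) and Vps8 (22.6 CPM), sham sample 10 in Kcne3 (48.15 CPM), and 1 d sample 17-1 in Zcchc18 (15.5 CPM).

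Among the other genes and lists, Xin stood apart in Hspb1 (3188 CPM) and in the summed levels of the integrated stress response (2329 CPM), the calcium channels (1712 CPM) and the glial markers (3058 CPM). Sham sample 4 was low in Adcyap1 (155.9 CPM), and without it the log2 fold change of Adcyap1 was 0.31. Sham sample 18 stood apart in Cd9 (310.0 CPM), Hsd17b7 (19.2 CPM) and the cell cycle genes (141.9 CPM summed), sham sample 10 in Gabbr1 (90.3 CPM) and the synaptic release genes (4766 CPM summed), and 1 d sample 16 in Mt-co2 (2455 CPM).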

How the results depend on the processing

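Genes past an adjusted p of 0.05 numbered 17 with DESeq2, 1 with a term for the reverse transcription year (Mrpl43), 1 in the 2020 samples alone (LOC306079) and 0 in the remaining alternatives, including each sample left out. The alternatives with the 2020 samples alone (where sham sample 18 is the lone sham sample and is assumed to vary like the other groups), with 17-1 and 17-2 both left out, and with each sample left out of the shares were chosen after seeing the data. Genes at an unadjusted p under 0.05 (1243) numbered 618 with 17-1 and 17-2 merged, 586 with cells thinned, 356 in the 2020 samples alone and 294 without 17-1 and 17-2, and 609 to 1965 with each sample left out. Lower ribosomal protein genes (44) numbered 21 with 2 groups only, 18 with 17-1 and 17-2 merged, 3 with the year as a term, 27 with cells thinned, 1 in the 2020 samples alone and 5 without 17-1 and 17-2, and 10 to 54 with each sample left out. Fewer samples or genes enter some of these fits, and otherwise the cause was not tested. DESeq2 was run only on the sums of the main comparison, and every other alternative was fitted by edgeR. The 17 calls of DESeq2 were thus not tried with 17-1 and 17-2 merged or left out, or with the year as a term.

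Of 86 genes given in the text 65 kept their direction under all 18 alternatives. For the genes chosen because their groups did not overlap, that choice favours the same direction, so a kept direction is no independent check. Log2 fold changes that reversed in the 2020 samples alone were Rps10l1 0.17, Cd9 -0.089, Trpv1 -0.56, Trpa1 0.072, Scn10a -0.36, Atf3 0.16, Gal 0.076, Jun 0.20, Ecel1 0.25, Gap43 0.032, Bdnf -0.085, Calca -0.34, Kcnn1 0.065, Actb 0.067, Tubb3 0.045, Mt-co2 -0.039 and Hspb1 0.18. With the year as a term they were Trpv1 -0.55, Trpa1 0.45, Scn10a -0.33, Atf3 0.18, Jun 0.15, Ecel1 0.046, Scn9a 0.015 and Hspb1 0.053. With 17-1 and 17-2 merged they were Trpa1 0.066 and Sprr1a -0.0042, with cells thinned Trpa1 0.33 and Adora1 -0.058, and without 17-1 and 17-2 Trpa1 0.37, Sprr1a -0.073, Klf4 -0.10 and Scn9a 0.057. With each sample left out, the ranges that crossed 0 were Trpv1 -0.17 to 0.42, Trpa1 -0.68 to 0.094, Atf3 -0.39 to 0.20, Sprr1a -0.23 to 0.59, Ecel1 -0.35 to 0.40, Scn9a -0.17 to 0.008 and Hspb1 -0.23 to 0.11. Differences in the share of cells (percentage points, 1 d minus sham) reversed for Jun at 50 CPM (-0.017) and for Sox11 with cells thinned (4.36), and with each sample left out ran from -4.34 to 14.4 for Sprr1a, -4.36 to 4.67 for Gal and -0.28 to 4.59 for Jun.

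Of 39 list medians 12 moved under some alternative by more than the median SE of the fitted changes of the list's genes. Among them were injury effectors (0.30 without Xin) and ribosomal proteins (-0.07 in the 2020 samples alone). No paired analysis was possible because the labels give the samples no replicate numbers. Depth limits genes under about 10 CPM, where Xin (4002503 UMIs) holds few molecules.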

Other observations

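Mrpl43, a protein of the mitochondrial ribosome, was singled out after its values were seen. It was at 132.5, 168.4, 84.8 and 4.20 CPM in sham samples Xin, 4, 10 and 18 and at 99.8, 36.8, 148.3 and 149.3 CPM in 1 d samples 13, 16, 17-1 and 17-2. It was also at 3.43 and 2.92 CPM in 7 d samples 19-1 and 19-2, and in the further sham libraries at 1.51 to 3.65 CPM in 5 and at 73.7 and 97.3 CPM in 2. LOC306079, also chosen after its values were seen, was at 43.4 and 23.9 CPM in sham samples 4 and 18, at 4.50 and 2.24 CPM in Xin and sham sample 10, and at 1.56 to 2.73 CPM in the 1 d samples. Both genes were thus high or low by sample within a group.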
